A study of Mus musculus with 8 samples.

Results

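The ATP-binding cassette (ABC) transporter genes Abcb1a, Abcb1b, Abcb9, Abca1, Abcg1 and Abcc1 were followed across sorted T follicular helper (Tfh) cells of the mouse. These 6 genes were taken by symbol from both deposited count tables and were chosen by their levels in these libraries, across tissues and sorts, so the values below describe them and test nothing about them. Of 35 ABC family genes in either table, 32 were in both tables and 29 passed the filter on low counts, among them all 6 described here, out of 14418 genes tested. ABC transporters are membrane proteins that use ATP to move substrates across a membrane. The multidrug pumps export hydrophobic drugs, dyes and steroids from the cell, other members export cholesterol or glutathione conjugates, and some carry peptides into an organelle. In mouse T cells of the ileum the multidrug pump is known for limiting the toxicity of bile acids.

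Bulk RNA-seq was performed on 8 libraries, in 4 groups of 2. All cells came from K/BxN mice, which develop arthritis spontaneously, crossed to a Th17 fate-mapping reporter that leaves the fluorescent protein ZsGreen in cells with a Th17 history. CD4+ T cells of Peyer's patch (PP), the lymphoid tissue of the intestine, and of spleen were enriched by negative selection and sorted as TCRβ+, CD25−, CXCR5+ and PD-1+, separately for ZsGreen+ and ZsGreen−. This gave 4 groups, ZsGreen+ and ZsGreen− cells from each tissue, with the ZsGreen− sort labelled as the control. The sources used here do not give age, sex, the number of animals behind a library or the promoter that drives the reporter.

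Replicate 1 of every group belongs to experiment 1 and replicate 2 to experiment 2, per the labels, and nothing says whether they came from separate animals, so a p-value reflects sample-to-sample spread that may be technical. Totals were 10009823 to 15323743 counts per library. Levels are TMM-scaled CPM (read counts relative to library size), and fold changes come from edgeR's quasi-likelihood fit with a term for the experiment, given as log2 ± standard error (SE). Since bulk RNA was measured, fewer cells of a type and less RNA per cell cannot be told apart in any result below. All 6 markers of the sort (Cd4, Cd3e, Cxcr5, Pdcd1, Bcl6, Icos) reached 1 CPM, and their summed level was 2495 to 5902 CPM over the libraries. Single markers differed between groups. Cxcr5 was 124 and 105 CPM in ZsGreen+ and 351 and 390 CPM in ZsGreen− cells of spleen (experiments 1 and 2), against 633 to 802 CPM in Peyer's patch. Bcl6 (82.8 and 16.6 CPM), Pdcd1 and Cd3e were also lowest in spleen ZsGreen+ cells in both experiments, while Cd4 and Icos were not. The part of these differences in the levels below was not tested.

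Abcb1a (ENSMUSG00000040584; mm39, chromosome 5, 8710077 to 8798575, plus strand) encodes a form of P-glycoprotein, the multidrug efflux pump of the cell surface. Its level was 34.3 and 8.78 CPM in ZsGreen+ cells of Peyer's patch (experiments 1 and 2), against 74 and 18.8 CPM in ZsGreen− cells of that tissue. In spleen it was 7.45 and 0.943 CPM in ZsGreen+ cells, against 28.3 and 7.21 CPM in ZsGreen− cells. Within each experiment the groups stood in the same order, upward from ZsGreen+ and then ZsGreen− cells of spleen to ZsGreen+ and then ZsGreen− cells of Peyer's patch, and the highest was 9.93 times the lowest in experiment 1 and 20 times in experiment 2. Every group was lower in experiment 2, so the 2 libraries of a group lay far apart: the means were 21.5 ± 18 and 46.4 ± 39 CPM in ZsGreen+ and ZsGreen− cells of Peyer's patch, and 4.2 ± 4.6 and 17.7 ± 14.9 CPM in ZsGreen+ and ZsGreen− cells of spleen (SD, n = 2 each). The estimated counts behind these levels ranged from 11 in spleen ZsGreen+ replicate 2 to 1360 in Peyer's patch ZsGreen− replicate 1.

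**Figure D1:**
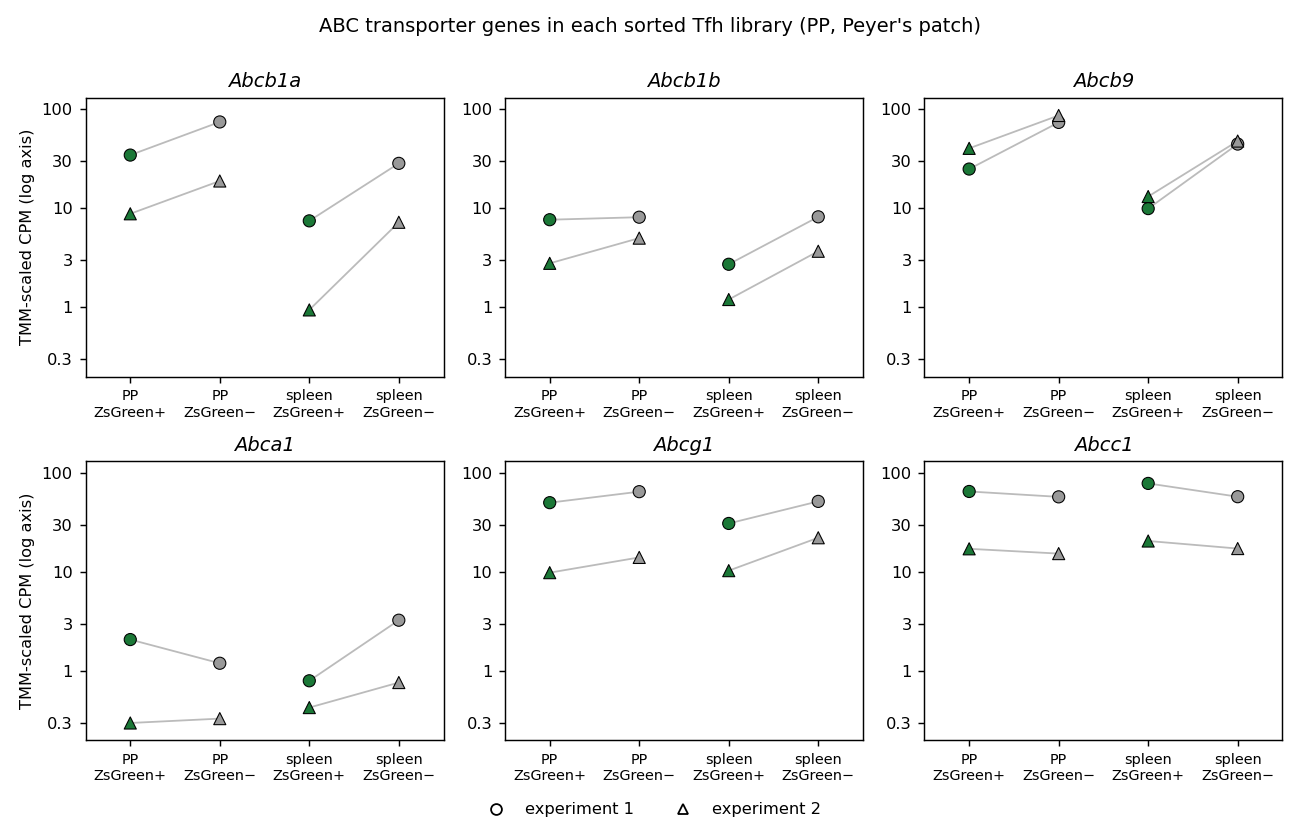
Level of each of the 6 ABC transporter genes (panels) in every library, in TMM-scaled CPM on a log axis, by tissue and sort; circles are experiment 1, triangles experiment 2, green ZsGreen+ and grey ZsGreen−, and a line joins the sorts of a tissue in an experiment. Abcb1a and Abcb9 are lower in ZsGreen+ cells in all 4 pairs, while Abcc1 is higher in all 4, with values from 15.3 to 78 CPM.

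The sort difference of Abcb1a was -1.11 ± 0.21 (log2, ZsGreen+ over ZsGreen−) in Peyer's patch, where it was -1.11 within experiment 1 and -1.09 within experiment 2. In spleen it was -2.16 ± 0.25, with -1.90 and -2.76 within the experiments. Cells of Peyer's patch exceeded those of spleen by 2.45 ± 0.24 among ZsGreen+ cells (2.18 and 3.04 within the experiments) and by 1.40 ± 0.22 among ZsGreen− cells (1.38 and 1.37). The difference in Peyer's patch fell short of the genome-wide threshold whichever of the 4 libraries of that tissue was left out, at -1.22 to -1.0, while the spleen difference stayed past it in each of the 8 fits that left out a library. The tissue difference among ZsGreen− cells fell short without ZsGreen− replicate 1 of Peyer's patch (1.51). Exons of the predicted gene Gm42686 overlap 10.1% of the exon bases of Abcb1a, and that gene had at most 11 counts in a library.

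Abcb1b (ENSMUSG00000028970; mm39, chromosome 5, 8848147 to 8916315, plus strand) encodes the second mouse P-glycoprotein and begins 49.6 kb beyond the end of Abcb1a. It was below Abcb1a in every library but ZsGreen+ replicate 2 of spleen, at 7.65 and 2.78 CPM in ZsGreen+ against 8.11 and 4.99 CPM in ZsGreen− cells of Peyer's patch. In spleen it was 2.72 and 1.2 CPM in ZsGreen+ cells, against 8.18 and 3.68 CPM in ZsGreen− cells. Spleen ZsGreen+ cells were lowest in both experiments, and the other 3 groups lay close together in experiment 1, from 7.65 to 8.18 CPM. The sort difference was -0.42 ± 0.33 in Peyer's patch, from -0.08 in experiment 1 and -0.81 in experiment 2. It was -1.60 ± 0.36 in spleen, from -1.54 and -1.51. That spleen difference no longer passed the genome-wide threshold whichever of the 4 spleen libraries was left out, at -1.65 to -1.56. Cells of Peyer's patch exceeded those of spleen by 1.37 ± 0.36 among ZsGreen+ cells (1.45 and 1.12 within the experiments), and differed by 0.20 ± 0.34 among ZsGreen− cells (-0.01 and 0.42). The first of these fell short of the threshold without ZsGreen+ replicate 1 of Peyer's patch (1.09) or without either ZsGreen+ library of spleen (1.41 and 1.33).

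Reads of this pair are in part interchangeable, because the genes are near-identical copies in places. The longest run of identical bases in their coding transcripts was 338 bases, all coding, in exons 13 and 14 of 28 of each gene (Abcb1a-201 and Abcb1b-201, GENCODE M21 on GRCm38). A read that lies wholly within that run matches both genes. The 135 bases of the run around the codons of the first ABC signature motif, which defines the family and helps to bind ATP, are shown. They lie at chr5:8702549-8702903 in Abcb1a and chr5:8824869-8825223 in Abcb1b (GRCm38, plus strand, an intron included in each range), and capitals mark the codons of the motif.
Abcb1a and Abcb1b: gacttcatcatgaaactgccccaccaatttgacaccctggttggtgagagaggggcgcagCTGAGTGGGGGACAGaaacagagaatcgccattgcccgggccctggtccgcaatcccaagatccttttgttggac

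Of all stretches of 50 bases in the transcript of Abcb1a, 15.5% also occurred in Abcb1b, and 7.49% of stretches of 100 bases did. For the transcript of Abcb1b these shares were 18% and 8.72%. In 5 of the 8 libraries the estimate for Abcb1a was more than 0.01 from a whole number, and in all 5 the sum of the pair was within 0.01 of one, so reads had been divided between these genes. Abcb1a held 81.8% and 76% of the pair's counts in ZsGreen+ and 90.1% and 79.1% in ZsGreen− cells of Peyer's patch (experiments 1 and 2). Its share was 73.3% and 44% in ZsGreen+ and 77.6% and 66.2% in ZsGreen− cells of spleen. The lowest share rests on 25 counts, with a Wilson 95% interval of 26.7% to 62.9%, which covers counting error only. Summed, the pair showed a sort difference of -1.0 ± 0.17 in Peyer's patch and -2.0 ± 0.19 in spleen, and exceeded spleen in Peyer's patch by 2.16 ± 0.19 among ZsGreen+ and 1.16 ± 0.17 among ZsGreen− cells, an alternative chosen after seeing the data.

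**Figure D2:**
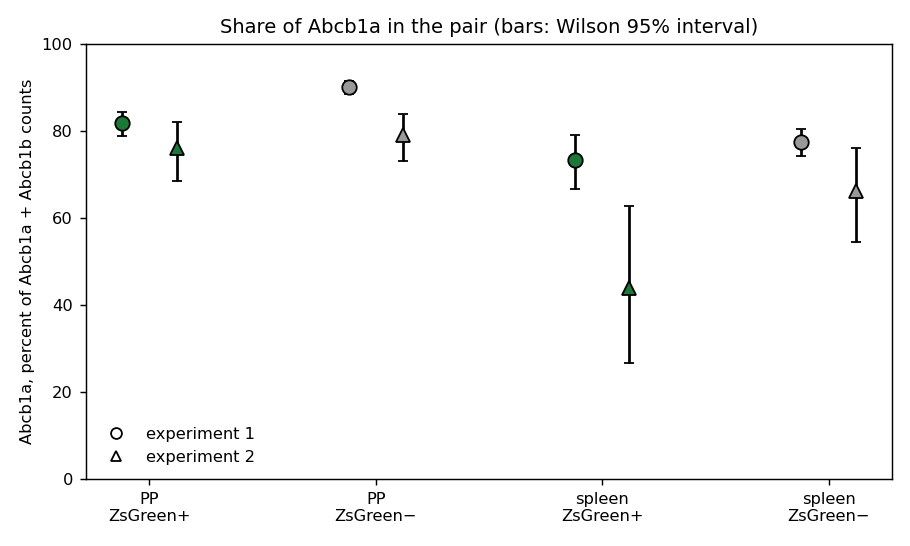
Share of Abcb1a in the summed estimated counts of Abcb1a and Abcb1b, in percent, for each library by tissue and sort; circles are experiment 1, triangles experiment 2, and bars are Wilson 95% intervals for counting error. In experiment 1 the share lies between 73.3% and 90.1%, and in experiment 2 the spleen ZsGreen+ library stands at 44% with an interval reaching 62.9%.

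Abcb9 (ENSMUSG00000029408; mm39, chromosome 5, 124199593 to 124233861, minus strand) encodes a lysosomal transporter of peptides related to the antigen transporters Tap1 and Tap2. It had 24.8 and 40.1 CPM in ZsGreen+ cells of Peyer's patch, against 73.2 and 86 CPM in ZsGreen− cells of that tissue. In spleen it had 9.9 and 13.1 CPM in ZsGreen+ cells, against 44.3 and 47.5 CPM in ZsGreen− cells. ZsGreen+ cells were lower than ZsGreen− cells of the same tissue and experiment in all 4 pairs. The order was the same in both experiments, upward from ZsGreen+ cells of spleen and of Peyer's patch to ZsGreen− cells of spleen and of Peyer's patch, and the highest was 7.39 and 6.55 times the lowest.

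The 2 libraries of a group lay closer together than those of Abcb1a: the means were 32.5 ± 10.8 and 79.6 ± 9.06 CPM in ZsGreen+ and ZsGreen− cells of Peyer's patch, and 11.5 ± 2.27 and 45.9 ± 2.29 CPM in ZsGreen+ and ZsGreen− cells of spleen (SD, n = 2 each). The sort difference was -1.32 ± 0.16 in Peyer's patch, -1.56 within experiment 1 and -1.10 within experiment 2. In spleen it was -2.02 ± 0.18, with -2.14 and -1.85 within the experiments. Peyer's patch exceeded spleen by 1.48 ± 0.17 among ZsGreen+ cells and by 0.78 ± 0.16 among ZsGreen− cells. The difference in Peyer's patch fell short of the threshold without ZsGreen− replicate 1 (-1.24) or replicate 2 (-1.41) of that tissue. The tissue difference among ZsGreen− cells did so without Peyer's patch replicate 1 (0.69) or 2 (0.85) or without spleen replicate 2 (0.61).

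The promoters of the 3 genes that were lowest in spleen ZsGreen+ cells in both experiments and past the threshold there are printed from RefSeq (GRCm38.p6), 250 bases before to 50 after the start site, since these genes were low together. The windows are chr5:8566841-8567140 for Abcb1a and chr5:8797897-8798196 for Abcb1b, both on the plus strand, and chr5:124095749-124096048 for Abcb9, on the minus strand. Capitals mark matches, on either strand, to the GC box GGGCGG or the inverted CCAAT box ATTGG, 2 motifs of general promoter elements.
Abcb1a: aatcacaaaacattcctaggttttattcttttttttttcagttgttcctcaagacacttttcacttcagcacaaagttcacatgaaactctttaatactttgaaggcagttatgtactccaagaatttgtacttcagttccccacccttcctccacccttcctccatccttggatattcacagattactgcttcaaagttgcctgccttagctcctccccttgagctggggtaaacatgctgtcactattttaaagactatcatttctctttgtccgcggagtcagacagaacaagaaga
Abcb1b: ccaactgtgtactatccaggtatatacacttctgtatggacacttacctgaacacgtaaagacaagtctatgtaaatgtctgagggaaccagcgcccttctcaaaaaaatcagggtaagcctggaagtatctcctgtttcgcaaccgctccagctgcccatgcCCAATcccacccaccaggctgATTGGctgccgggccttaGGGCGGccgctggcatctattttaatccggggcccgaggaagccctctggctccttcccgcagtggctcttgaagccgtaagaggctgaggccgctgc
Abcb9: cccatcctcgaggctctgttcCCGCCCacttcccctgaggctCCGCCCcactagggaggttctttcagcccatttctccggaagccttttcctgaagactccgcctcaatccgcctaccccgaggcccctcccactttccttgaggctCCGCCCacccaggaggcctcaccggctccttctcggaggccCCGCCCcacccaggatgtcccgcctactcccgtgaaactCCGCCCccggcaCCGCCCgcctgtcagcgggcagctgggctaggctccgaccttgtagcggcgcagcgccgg
The window of Abcb9 held 6 GC boxes, none overlapping, and was 68.7% G and C. That of Abcb1b held 1 GC box and 2 CCAAT boxes at 55% G and C. The window of Abcb1a held neither motif and was 40.3% G and C, and its start site lies 93 kb before the GENCODE start of the gene. None of the 3 windows matched the TATA box TATAAA, the nuclear receptor motif AGGTCA or the T-box motif GGTGTGA. Of 32851 promoters of this length, 35.7% held the GC box, 37.4% the CCAAT box, 13.6% TATAAA, 16.3% AGGTCA and 3.98% GGTGTGA. A match is a run of letters and not a bound site.

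Abcc1 (ENSMUSG00000023088; mm39, chromosome 16, 14179422 to 14293601, plus strand) encodes multidrug resistance protein MRP1, which exports glutathione conjugates and leukotriene C4. It had 64.7 and 17.1 CPM in ZsGreen+ cells of Peyer's patch, against 57.1 and 15.3 CPM in ZsGreen− cells of that tissue. In spleen it had 78 and 20.5 CPM in ZsGreen+ cells, against 57.3 and 17.2 CPM in ZsGreen− cells. Within an experiment its groups were the closest of the 6 genes, the highest being 1.37 and 1.34 times the lowest, and spleen ZsGreen+ cells were highest in both. The sort difference was 0.17 ± 0.14 in Peyer's patch and 0.36 ± 0.14 in spleen, positive within both experiments in each tissue (0.18 and 0.16, then 0.44 and 0.25) and past the threshold in neither. Peyer's patch was below spleen by -0.26 ± 0.14 among ZsGreen+ cells and by -0.07 ± 0.15 among ZsGreen− cells.

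Abcg1 (ENSMUSG00000024030; mm39, chromosome 17, 31276649 to 31336962, plus strand) encodes a transporter that moves cholesterol out of the cell to lipoprotein particles and restrains T cell proliferation in mice. It had 49.9 and 9.83 CPM in ZsGreen+ cells of Peyer's patch, against 64.4 and 14 CPM in ZsGreen− cells of that tissue. In spleen it had 30.8 and 10.3 CPM in ZsGreen+ cells, against 51.4 and 22.1 CPM in ZsGreen− cells. ZsGreen+ cells were lower in all 4 pairs, and the order of the tissues changed between the experiments. The sort difference was -0.42 ± 0.25 in Peyer's patch and -0.92 ± 0.26 in spleen, where it was -0.74 and -1.09 within the experiments and not past the threshold. DESeq2 put the spleen difference past the threshold, at -0.90, as did edgeR without a filter on low counts (-0.92), without ZsGreen− replicate 1 of spleen (-1.35) and without ZsGreen+ replicate 1 (-0.91) or replicate 2 (-0.87) of Peyer's patch. It was not past the threshold in the other fits that left out a library, among them those without ZsGreen− replicate 2 (-0.54), ZsGreen+ replicate 1 (-0.73) or ZsGreen+ replicate 2 (-1.07) of spleen. The tissue difference was 0.38 ± 0.25 among ZsGreen+ cells and -0.11 ± 0.25 among ZsGreen− cells, of opposite sign in the experiments in both sorts (0.69 and -0.07, then 0.33 and -0.66).

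Abca1 (ENSMUSG00000015243; mm39, chromosome 4, 53030787 to 53159895, minus strand) hands cholesterol to lipid-poor apolipoprotein A-I and, with Abcg1, is a classical target of the oxysterol receptors LXR. It was at the edge of detection, with 2.08 and 0.3 CPM in ZsGreen+ against 1.2 and 0.332 CPM in ZsGreen− cells of Peyer's patch. In spleen it had 0.799 and 0.429 CPM in ZsGreen+ cells, against 3.26 and 0.767 CPM in ZsGreen− cells. The counts behind these levels were 3 to 61 per library. The sort difference was 0.50 ± 0.73 in Peyer's patch, 0.73 in experiment 1 and -0.10 in experiment 2, and -1.55 ± 0.75 in spleen. The tissue difference was 0.69 ± 0.75 among ZsGreen+ and -1.36 ± 0.73 among ZsGreen− cells. None of these differences passed the threshold, the spleen one included.

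Per kilobase of exon, the order of the 6 genes differed between the experiments. In experiment 2 Abcb9 was highest in every group, at 7.17 and 15.3 CPM per kb in ZsGreen+ and ZsGreen− cells of Peyer's patch and 2.34 and 8.48 CPM per kb in those of spleen. In experiment 1 it was highest in ZsGreen− cells of spleen alone (7.91 CPM per kb). There it stood below Abcg1 (6.83) and Abcb1a (6.26) in ZsGreen+ cells of Peyer's patch, at 4.43 CPM per kb, and below Abcb1a (13.5) in ZsGreen− cells of that tissue, at 13.1 CPM per kb.

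In spleen ZsGreen+ cells of experiment 1, Abcc1 (5.17 CPM per kb) and Abcg1 (4.22) stood above Abcb9 (1.77), while in experiment 2 they stood below it, at 1.36 and 1.41 CPM per kb. Per base of the longest coding transcript in place of all exons, Abcc1 had 11.5 and 3.02 and Abcb9 had 2.71 and 3.58 CPM per kb in these cells (experiments 1 and 2). The order in Peyer's patch in experiment 1 also depended on the length used. By the longest transcript, Abcb9 (20 CPM per kb) stood above Abcb1a (14.8) in ZsGreen− cells there. In ZsGreen+ cells Abcc1 (9.53) stood above Abcg1 (8.55). Among the 29 tested family genes Abcb9 ranked 12 in experiment 1 and 8 in experiment 2 by its mean CPM per kb of exon, Abcg1 ranked 13 and 12, and Abcb1a 14 and 13. Abcc1 ranked 19 and Abca1 28 in both, and Abcb1b ranked 25 and 26.

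Counted against the genome-wide threshold (adjusted p under 0.05, edgeR's quasi-likelihood test with Benjamini-Hochberg adjustment over all genes tested), 2 of the 6 genes, Abcb9 and Abcb1a, were lower in ZsGreen+ cells of Peyer's patch, where 0.153% of all genes tested were. In spleen 3 of 6 were lower, Abcb1a, Abcb9 and Abcb1b, beside 4.09% of all genes tested. Peyer's patch exceeded spleen for these 3 among ZsGreen+ cells, beside 5.51% of all genes, and for Abcb1a and Abcb9 among ZsGreen− cells, beside 1.82%. Since levels in these groups chose the genes, nothing is read from these counts. In a fit without the experiment term 0 of the 6 genes passed in any of these comparisons. Across the 6 genes the median sort difference was -0.42 in Peyer's patch and -1.57 in spleen, against 0.00 and -0.03 over all genes tested.

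The sort difference of Abcb1a, Abcb1b and Abcb9 was less negative in Peyer's patch than in spleen, by 1.05 ± 0.32, 1.17 ± 0.49 and 0.70 ± 0.24 on the log2 scale. For each of them the difference had the same sign in both experiments (0.80 and 1.67, 1.46 and 0.70, 0.59 and 0.75). By edgeR's interaction term 0 of the 6 genes passed the threshold, where 0.0971% of all genes tested passed in either direction. DESeq2 also passed 0 of the 6. The sort differences are thus not shown to differ between the tissues.

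Marker lists also moved with the sorts, and their part in these levels was not tested. The summed level of 6 Th17 markers, the history that the reporter records, was 118 and 457 CPM in ZsGreen+ against 20 and 94.7 CPM in ZsGreen− cells of Peyer's patch (experiments 1 and 2). In spleen it was 616 and 1677 CPM in ZsGreen+ against 21.2 and 72.2 CPM in ZsGreen− cells, so ZsGreen+ cells were higher in all 4 pairs. The sum of epithelial markers, of which 5 of 6 reached 1 CPM, was higher in all 4 pairs too. It was 9.28 and 16.5 CPM in ZsGreen+ against 7.57 and 11 CPM in ZsGreen− cells of Peyer's patch, and 2.77 and 9.26 against 2.25 and 7.05 CPM in those of spleen. Single epithelial markers did not move together. In spleen Krt18 was higher in ZsGreen+ cells (1.33 and 6.43 against 0.695 and 1.23 CPM) and Epcam lower (1.44 and 2.83 against 1.5 and 5.83 CPM). Krt8, Krt19 and Cdh1 were at 0 there. In Peyer's patch Epcam was higher (2.7 and 4.43 against 1.36 and 3.77 CPM) and Cdh1 lower (1.12 and 0 against 1.25 and 0.111 CPM).

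The B cell list and the CD8 T and NK cell list were lower in ZsGreen+ cells in all 4 pairs. All 6 B cell markers reached 1 CPM in some library, and their sum was 71.3 and 8.33 CPM in ZsGreen+ against 84.5 and 17.7 CPM in ZsGreen− cells of Peyer's patch. In spleen it was 4.9 and 4.89 CPM in ZsGreen+ against 37.4 and 18.2 CPM in ZsGreen− cells. Cd22 gave 51.6 and 13.4 CPM of this in ZsGreen− cells of Peyer's patch and 33.5 and 17 CPM in those of spleen. Single B cell markers did not move together. Cd22 was lower in ZsGreen+ cells in all 4 pairs and Cd79b higher in all 4. Pax5 was higher in ZsGreen+ cells of Peyer's patch in experiment 1 (37 against 21.9 CPM) and lower in the other pairs. CD8 T and NK cell markers, 4 of which reached 1 CPM, summed to 47.6 and 67.5 CPM in ZsGreen+ against 57.3 and 76.2 CPM in ZsGreen− cells of Peyer's patch, and to 19.6 and 36.3 CPM in ZsGreen+ against 27.3 and 38 CPM in ZsGreen− cells of spleen, while Cd8a stayed at 0 to 0.871 CPM. Klrb1c was the largest part of the CD8 T and NK cell sum in every library. It was higher in ZsGreen+ cells of spleen in experiment 2 (23.5 against 18.5 CPM) and lower in the other pairs. Klrd1 was higher in ZsGreen+ cells in both Peyer's patch pairs (0.787 and 1.2 against 0.218 and 0.886 CPM) and lower in both spleen pairs. Cd8b1 was higher only in Peyer's patch in experiment 2 (6.3 against 5.1 CPM), and Prf1 was lower in all 4 pairs. Of 10 myeloid markers, 8 were in both tables and 6 reached 1 CPM. Their sum was lower in ZsGreen+ cells in both spleen pairs, at 14.7 and 9.69 CPM in ZsGreen+ against 22.9 and 17.5 CPM in ZsGreen− cells. In Peyer's patch it was 36.8 and 30.2 CPM in ZsGreen+ against 33.1 and 31.1 CPM in ZsGreen− cells, higher in experiment 1 and lower in experiment 2.

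All of the genes but Abcb9 were lower in experiment 2 than in experiment 1. Averaged over the 4 groups, experiment 2 lay below experiment 1 by -2.17 (log2) for Abcb1a, -1.86 for Abcc1, -1.83 for Abcg1, -1.62 for Abca1 and -1.08 for Abcb1b, and above it by 0.36 for Abcb9. The median over all genes tested was -0.02. Among the 29 family genes, 14 of the 16 with a transcript of 4 kb or longer lay below -1, and 0 of the 13 with a shorter one did. Across these genes the difference had a Pearson r of -0.68 with the log10 of transcript length and -0.19 with its share of G and C, a description over genes of the same libraries. The transcript of Abcb9 is 3.66 kb, and those of the other 5 genes are 4.31 to 10.3 kb. Experiment, library preparation and sequencing run cannot be told apart here, and sort and tissue differences above are within experiments.

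**Figure D3:**
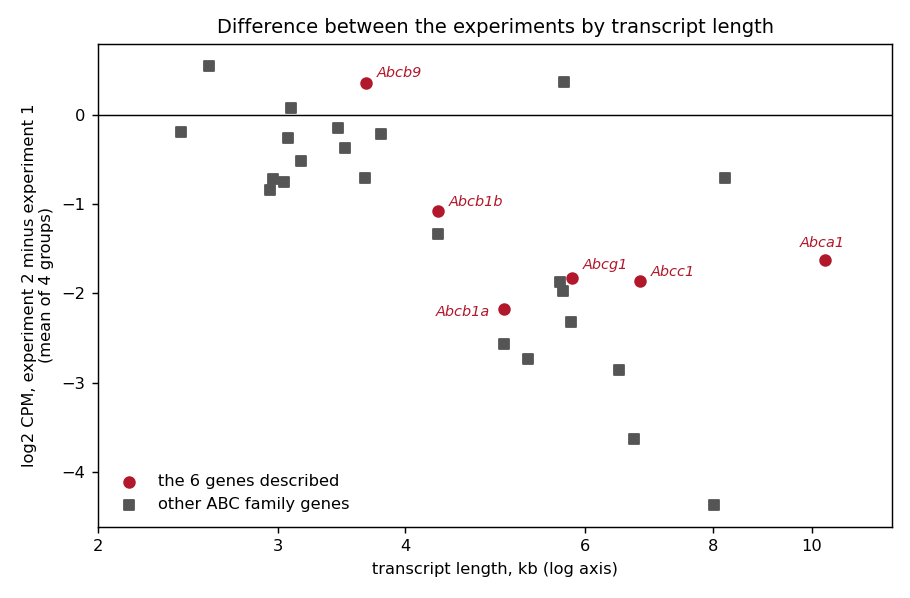
Difference in log2 CPM between the experiments (experiment 2 minus experiment 1, mean over the 4 groups; vertical axis) against transcript length in kb (log axis) for the 29 tested ABC family genes, with the 6 genes described in red. Abcb9, at 3.66 kb, lies at 0.36, while the 5 longer of the red genes lie between -2.17 and -1.08.

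The other 23 tested family genes were read from the same fit. In Peyer's patch 0 of them passed the threshold between the sorts by edgeR, although 4 were under 0.05 before adjustment, and DESeq2 passed 1, Abcc3. Over all genes tested, 0.284% rose and 0.153% fell by edgeR in ZsGreen+ cells of Peyer's patch, and 4.53% rose and 4.09% fell in those of spleen. Abcc3, a transporter of glucuronide conjugates and bile salts, had 68.8 and 9.38 CPM in ZsGreen+ against 28 and 2.1 CPM in ZsGreen− cells of Peyer's patch, a difference of 1.50 ± 0.33 (edgeR's quasi-likelihood test, adjusted p = 0.144). In spleen 2 fell by edgeR and 3 by DESeq2, and 0 rose by either, with 5 under 0.05 before adjustment. Among those that fell, Tap1, which with Tap2 carries peptides into the endoplasmic reticulum for class I loading, had 192 and 95.8 CPM in ZsGreen+ against 279 and 183 CPM in ZsGreen− cells of spleen (-0.73 ± 0.14, edgeR adjusted p = 0.00762).

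The call of Tap1 depended on single libraries, as it did not pass without replicate 2 of ZsGreen+ (-0.62) or ZsGreen− (-0.60) spleen cells. The median sort difference over the 23 genes was 0.08 in Peyer's patch and -0.09 in spleen. Tap2, Abcf1 and Abce1, which had the highest mean CPM of the family genes that passed in no comparison, had differences within 0.30 of 0 in both tissues. Abcf1 and Abce1 are soluble family members that act in translation. By the interaction term, for a sort difference that depends on the tissue, 0 of the 23 passed by edgeR, with 1 at an unadjusted p under 0.05 and 0 by DESeq2.

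**Figure D4:**
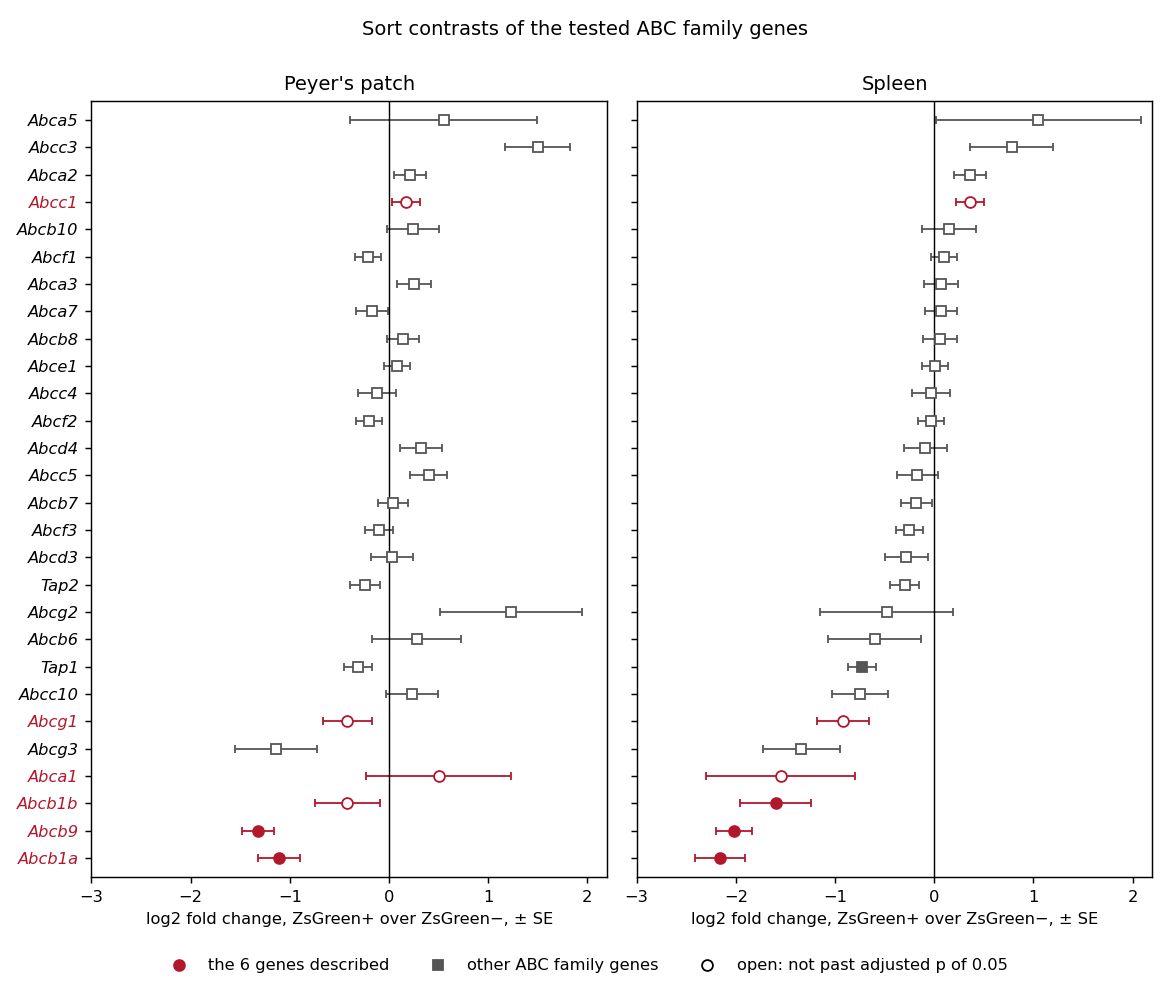
Log2 fold change of ZsGreen+ over ZsGreen− cells, with its SE, for 28 of the 29 tested ABC family genes in Peyer's patch (left) and spleen (right), ordered by the spleen value; red circles are the 6 genes described, grey squares the others, and filled symbols are past an adjusted p of 0.05. Abcb1a, Abcb9 and Abcb1b have the lowest values in spleen, from -2.16 to -1.60, and the order follows from how these genes were chosen.

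Between tissues, 3 of the 23 were higher in Peyer's patch than in spleen among ZsGreen+ cells and 1 was lower, beside 5.51% of all genes tested that were higher and 7.17% that were lower. Abcc3 had 68.8 and 9.38 CPM in Peyer's patch against 10.1 and 1.89 CPM in spleen (2.62 ± 0.36, edgeR adjusted p = 0.00116). Abcc5, an exporter of cyclic nucleotides, had 78.8 and 11.5 CPM in Peyer's patch against 36.9 and 7.03 CPM in spleen (0.93 ± 0.19, edgeR adjusted p = 0.00803). Abcc10, a lipophilic anion transporter, had 23 and 3.45 CPM against 12.5 and 1.29 CPM in spleen (1.04 ± 0.27, edgeR adjusted p = 0.023). Abca2, an endolysosomal lipid transporter, had 166 and 8.55 CPM in Peyer's patch against 272 and 14.7 CPM in spleen (-0.74 ± 0.16, edgeR adjusted p = 0.0093).

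Of these 4, Abcc3 passed in every fit that left out a library. Abcc5 did not pass without ZsGreen+ replicate 1 of Peyer's patch (0.59) or of spleen (0.96), nor Abcc10 whichever of the 4 ZsGreen+ libraries was left out (0.84 to 1.45). Abca2 did not pass without ZsGreen+ replicate 1 of Peyer's patch (-0.66) or replicate 2 of spleen (-0.66). Among ZsGreen− cells 1 of the 23 passed, as higher in Peyer's patch, beside 1.82% of all genes tested. This was Abcc3, with 28 and 2.1 CPM in Peyer's patch against 5.19 and 1.84 CPM in spleen (1.89 ± 0.41, edgeR adjusted p = 0.0249). That difference was 2.40 within experiment 1 and 0.18 within experiment 2, and was not past the threshold without replicate 1 of Peyer's patch (0.92) or of spleen (0.75).

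Genes of the pathways that the transporters belong to were counted from lists. These lists were chosen with earlier results of these data known, so their counts and medians are descriptions. Tap1 and Tap2 are on the first list and were also counted among the family genes above. Of 14 genes of peptide transport and class I loading, 4 fell in spleen ZsGreen+ cells, beside 4.09% of all genes tested, and 0 rose by edgeR or DESeq2. The median was -0.46, against -0.03 over all genes tested. Those that fell were Nlrc5, the transactivator of class I genes (-0.94 ± 0.15, edgeR adjusted p = 0.00294), Tap1, the tapasin relative Tapbpl (-0.86 ± 0.18, edgeR adjusted p = 0.0114) and the immunoproteasome subunit Psmb9 (-0.74 ± 0.17, edgeR adjusted p = 0.0186). Without replicate 2 of ZsGreen+ or of ZsGreen− spleen cells, Tapbpl (-0.75 and -0.64) and Psmb9 (-0.56 and -0.46) did not pass. In Peyer's patch 0 of 14 passed by either tool and 1 had an unadjusted p under 0.05.

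Of 19 tested genes of sterol sensing and LXR targets, the setting of Abca1 and Abcg1, 1 rose and 2 fell in spleen ZsGreen+ cells, beside 4.53% and 4.09% of all genes tested. Their median was -0.10. The phospholipid remodelling enzyme gene Lpcat3 rose (0.83 ± 0.14, edgeR adjusted p = 0.00433). Mylip, a ligase that degrades the LDL receptor (-0.98 ± 0.21, edgeR adjusted p = 0.0129), and the fatty acid desaturase gene Scd2 (-0.71 ± 0.16, edgeR adjusted p = 0.0186) fell. These 3 are known LXR targets in mice, and a part of LXR in these differences was not tested. Lpcat3 did not pass without ZsGreen+ replicate 1 (0.75) or ZsGreen− replicate 2 (0.78) of spleen, Mylip without either ZsGreen+ library (-1.04 and -0.94) or ZsGreen− replicate 2 (-0.73), and Scd2 without replicate 2 of ZsGreen+ (-0.49) or ZsGreen− (-0.60). In Peyer's patch 0 of 19 passed by either tool, with 1 at an unadjusted p under 0.05.

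Of 14 tested genes of glutathione and leukotriene C4 metabolism, which supplies substrates of Abcc1, 2 fell and 0 rose by edgeR in spleen ZsGreen+ cells, beside 4.09% and 4.53% of all genes tested. DESeq2 called 2 lower and 2 higher, 6 were under 0.05 before adjustment by edgeR, and the median was 0.06. Mgst2, a microsomal glutathione transferase that can make leukotriene C4, averaged 6.38 ± 2.01 CPM in ZsGreen+ and 16.4 ± 6.01 CPM in ZsGreen− cells of spleen (SD, n = 2 each), a difference of -1.35 ± 0.20 (edgeR adjusted p = 0.00215). It also rose in Peyer's patch over spleen among ZsGreen+ cells, by 1.79 ± 0.20 (edgeR adjusted p = 0.000166). Nfe2l2, the regulator of antioxidant genes, fell by 0.55 on the log2 scale in spleen (edgeR adjusted p = 0.0246) and did not pass whichever of the 4 spleen libraries was left out (-0.63 to -0.48). In Peyer's patch 0 of 14 passed by either tool and 2 had an unadjusted p under 0.05.

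Among 16 tested regulators that have been linked to multidrug transporter transcription, 2 rose and 1 fell in ZsGreen+ cells of each tissue. Of all genes tested, 0.284% rose and 0.153% fell in Peyer's patch, and 4.53% rose and 4.09% fell in spleen. Ahr, the aryl hydrocarbon receptor, rose in spleen by 1.65 ± 0.20 (edgeR adjusted p = 0.000514), and Vdr, the vitamin D receptor, in Peyer's patch by 1.46 ± 0.22 (edgeR adjusted p = 0.0296). Eomes, a T-box factor of cytotoxic and memory cells, fell in both, to 0.416 ± 0.467 CPM in ZsGreen+ against 25 ± 19.5 CPM in ZsGreen− cells of spleen and to 0.159 ± 0.0132 against 4.8 ± 5.22 CPM in Peyer's patch (edgeR adjusted p = 2.21e-05 and 0.00397). In Peyer's patch Eomes did not pass without replicate 1 of ZsGreen+ (-3.32) or ZsGreen− (-3.94), and Vdr without ZsGreen+ replicate 1 (1.26) or ZsGreen− replicate 1 (1.59) or 2 (1.35).

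Across the 8 libraries, with each experiment centred on its mean, Abcb1a, Abcb1b and Abcb9 varied together. Pearson r of log2 CPM was 0.95 between Abcb1a and Abcb9, 0.94 between Abcb1a and Abcb1b and 0.93 between Abcb1b and Abcb9, and Abcc1 ran opposite, at -0.98 with Abcb9. With 4 groups in 2 experiments these values describe a pattern of groups and carry no test. The genes were chosen by their levels in these same groups, and reads had been divided between Abcb1a and Abcb1b. The part of either in these values was not tested. Out of 10215 genes with a mean of at least 5 CPM, the closest to Abcb1a were Fam118a (r = 0.997), Calcoco1 (0.996) and Sqor (0.995). Closest to Abcb1b were Ugcg (0.991), Ikbke (0.989) and Kdm5b (0.988), and closest to Abcb9 were Ipo4 (0.994), Pik3ip1 (0.991) and Pde7a (0.990). For Abcc1 they were Banf1 (0.995), Cr1l (0.989) and Il22 (0.988), the last a cytokine gene of Th17 cells. For Abcg1 they were Dgkz (0.979), Chaserr (0.978) and Ube2z (0.975), and for Abca1 Lpin1 (0.966), Pura (0.957) and Cblb (0.943). The size of the change differed between genes of like shape: Fam118a had 16.9 and 19.5 CPM in spleen ZsGreen+ and 20.9 and 27.9 CPM in spleen ZsGreen− cells, a far narrower range than that of Abcb1a.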

How the data were processed

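Per the labels, RNA of sorted Tfh cells was prepared by poly A enrichment or as a non-directional low-input library, without saying which library had which. Without strand, reads of overlapping genes cannot be told apart. The submitters' processing notes name Partek, STAR, DESeq2 and mm39, without versions or settings in the sources used here. The raw tables deposited by the authors hold estimated counts (expected counts) per gene. In a library, 17.6% to 29.9% of values were not whole (tolerance 0.01). The authors also deposited a normalized signal, these counts times 1 constant per library, used here for 1 alternative.

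Counts were rounded, and edgeR 4.0.16 in R 4.3.3 (limma 3.58.1) was fitted to the 16735 genes in both tables. filterByExpr (minimum count 10, minimum total 15) kept 14418. Libraries were scaled by TMM and a robust quasi-likelihood model had 4 group means and an experiment term, leaving 3 residual degrees of freedom. Tests are two-sided F tests with Benjamini-Hochberg adjustment over all genes tested and a threshold of 0.05, and SEs were derived from the F statistic. Differences within an experiment and correlations use log2 CPM with a prior count of 2. Replicate numbers pair libraries because they mark the experiment in the labels, and deviations of same-numbered libraries from their group means correlated with r of 0.825 to 0.867 over 6 pairs of groups. Alternatives were DESeq2 1.42.0 and its size factors, other filters, no experiment term, limma on log2(signal + 1), genes in either table, each library left out and each experiment alone. The fit was tested on simulated data.

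The members and lists were chosen with earlier results of these data known. The naming rule took the 6 genes always, other family genes past the threshold in any comparison or among the 3 with the highest mean CPM of the rest, up to 4 genes a pathway list past the threshold between sorts, and the 3 genes closest in pattern to each. Gene coordinates are those of the deposited files (mm39). Transcript lengths and overlaps are from GENCODE M21 (GRCm38), and promoters from RefSeq (GRCm38.p6), which had 4 of the 6 genes, with Abcg1 and Abcc1 not used here. The 29 tested family genes exclude 3 in both tables under the count filter and 3 in 1 table only. No per-sample column was left unused. Some genes that the naming rule takes are not reported here.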

Additional observations from a re-analysis of the deposited data

How the results depend on the processing

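For the 6 transporter genes, 471 of 515 recomputed log2 fold changes were classed as unchanged, and 29 fell short of the threshold. All 29 belonged to differences that had passed it, while most of the 515 belonged to differences that had not. The share unchanged is thus no measure of how stable the differences past the threshold were. In a refit, unchanged means the same direction and side of the threshold. For an experiment alone there was no test, and unchanged means within the larger of the SE and the SD between experiments. Such values could differ in sign where a gene had not passed, as for Abca1 between sorts in Peyer's patch (0.50, but -0.10 in experiment 2). Without the experiment term (no replicate block), the number of the 6 genes past the threshold was 0 in every comparison, as was that of the other family genes, against 2 and 0 lower between sorts in Peyer's patch, 3 and 2 lower in spleen, 2 and 1 higher between tissues among ZsGreen− cells, and 3 and 3 higher with 0 and 1 lower among ZsGreen+ cells. The 2 genes lower in Peyer's patch became 1 with the stricter count filter and 1 with the authors' signal in limma, which also left 0 other family genes higher between tissues among ZsGreen− cells. DESeq2 called 1 other family gene higher in Peyer's patch and 1 lower between tissues among ZsGreen− cells, as did fitting with no filter on low counts (1 lower). The cause of these shifts was not tested.

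With 1 library left out, where the lone sample is assumed to vary like the other groups, the counts ranged from 0 to 2 genes lower between sorts in Peyer's patch (other family genes 0 to 1 higher), and from 2 to 4 genes and 0 to 3 other family genes lower in spleen. Between tissues among ZsGreen− cells 0 to 2 genes and 0 to 1 other family genes were higher and 0 to 1 other family genes lower. Among ZsGreen+ cells 2 to 3 genes and 1 to 3 other family genes were higher and 0 to 1 lower. Fewer samples entered these fits.

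In the refits, reversals fell on 3 genes in comparisons where they had not passed the threshold. With 1 library left out, Abca1 ranged from -0.29 (without Peyer's patch ZsGreen+ replicate 1) to 0.84 between sorts in Peyer's patch, and from -0.16 (without spleen ZsGreen+ replicate 1) to 1.20 between tissues among ZsGreen+ cells, with -0.07 without Peyer's patch ZsGreen+ replicate 1. Abcg1 ranged from -0.02 to 0.62 between tissues among ZsGreen+ cells, and from -0.57 to 0.24 among ZsGreen− cells, where it was 0.09 without the experiment term. Abcb1b ranged from -0.07 to 0.51 between tissues among ZsGreen− cells. Without centring on the experiments, 4 of the 18 genes named for a similar pattern were named again. Of 24 mean levels per kb of exon, 12 moved by more than the SD of their group when taken per kb of the longest coding transcript. Depth limits Abca1 most.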
